A study of Arabidopsis thaliana with 12 samples.

Results

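The 10 genes described here make or control indole glucosinolates and camalexin, and they were followed through all 12 RNA-seq libraries of a root tip regeneration experiment in Arabidopsis thaliana. They were chosen by name, for their place in the pathway, and are 10 of the 32833 loci in the deposited count table. The early enzymes are CYP79B2 (AT4G39950) and CYP79B3 (AT2G22330). The branch enzymes are CYP83B1 (AT4G31500), CYP71A12 (AT2G30750), CYP71A13 (AT2G30770), PAD3 (AT3G26830, also CYP71B15) and CYP71B6 (AT2G24180). The regulators are the MYB factors MYB34 (AT5G60890), MYB51 (AT1G18570) and MYB122 (AT1G74080). In the root stump left after the tip was cut off, CYP83B1 transcript rose at 30 min, 14 h and 24 h, CYP79B2 rose at 30 min, CYP71B6 and MYB51 rose at 14 h and 24 h, and MYB34 was lower at 30 min and 24 h. The calls of CYP79B2 and MYB34 were lost in several alternative fits, among them fits that left out 1 uncut library. That of MYB51 at 24 h was lost without the mock 24 h library. CYP71A13 and MYB122 were close to undetected throughout.

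Both end products start from tryptophan. CYP79B2 and CYP79B3 turn it into indole-3-acetaldoxime, which stands at a branch point and is also a source of auxin in Arabidopsis. CYP83B1 takes the aldoxime into the indole glucosinolates, sulfur-rich compounds that myrosinases break down when tissue is damaged. CYP71A12 and CYP71A13 dehydrate the same aldoxime to indole-3-acetonitrile, from which PAD3 completes camalexin, the main phytoalexin of Arabidopsis. CYP71B6 acts on indole-3-acetonitrile in another direction, toward indole-3-carboxylic acid derivatives. MYB34, MYB51 and MYB122 are related R2R3 MYB factors that switch on the indole glucosinolate genes. MYB34 is known mainly from roots and MYB51 mainly from shoots, and MYB122 has an accessory role.

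All plants were Col-0 seedlings, 7 days after sowing. Those to be cut first spent 1 h on medium with 50 µM CNQX, which blocks ionotropic glutamate receptors in animals, or on mock medium. About 130 µm of root tip was then cut off on the same medium, and the plants were put on new plates. Tissue reaching about 100 µm above the cut, here called the stump, was taken at 30 min, 4 h, 14 h or 24 h, with 1 library for each treatment at each time. The uncut groups were roots kept 14 h on CNQX or mock plates, from which about 100 µm of tip was taken, with 2 libraries per treatment. No separate step of 1 h is given for these groups. The series description gives 16 h for the last time where the sample labels give 24 h, and the labels were followed. The sources used here do not say whether the plates used after cutting held CNQX. Stump and uncut tip are different positions along the root, so that excision and position cannot be told apart. All uncut tips came from roots kept 14 h on plates. Stumps of 30 min, 4 h and 24 h therefore also differ from them in time on plates, and this was not separated from excision. In these bulk samples fewer cells of a type and less RNA per cell cannot be told apart either. Nothing in the labels says that the libraries of a group came from separate cultures, so that the spread between uncut replicates may be technical. No stump time has a replicate within a treatment, and the fit used below shares 1 CNQX effect over the 4 stump times. The other part of the spread behind each p-value is therefore how the difference between CNQX and mock varied from time to time.

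The sequences that bear on the comparisons below were read from the TAIR10.1 genome of RefSeq, and the gene coordinates are from its annotation. CYP79B2 lies on the plus strand at chr4:18525042-18527602 and CYP79B3 on the plus strand at chr2:9488413-9491404. The 250 bases before the annotated start of each are shown because the pair makes the same enzyme step. The capitals mark the longest run that the 2 windows share, which is 22 bases long.
CYP79B2, chr4:18524792-18525041, plus strand: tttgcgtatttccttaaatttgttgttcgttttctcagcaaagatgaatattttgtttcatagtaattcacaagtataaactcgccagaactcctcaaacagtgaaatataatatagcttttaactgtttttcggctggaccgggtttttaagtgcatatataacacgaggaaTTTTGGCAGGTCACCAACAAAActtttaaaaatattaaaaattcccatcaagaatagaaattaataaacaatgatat
CYP79B3, chr2:9488163-9488412, plus strand: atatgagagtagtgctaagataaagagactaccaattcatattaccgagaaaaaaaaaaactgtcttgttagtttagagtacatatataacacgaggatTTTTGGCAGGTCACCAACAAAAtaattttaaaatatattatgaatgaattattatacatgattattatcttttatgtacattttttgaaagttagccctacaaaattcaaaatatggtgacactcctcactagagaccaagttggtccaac
The run begins 77 bases before the start of CYP79B2 and 151 bases before that of CYP79B3. Of 27443 windows of this length before protein-coding genes, searched on both strands, these 2 held it, which is 0.00729%. Both hold it by construction, since the run was taken from them, and other pairs of windows were not compared in this way.

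CYP83B1, on the minus strand at chr4:15273410-15275404, and CYP71B6, on the plus strand at chr2:10281718-10283735, had the highest levels in late stumps, and their windows are shown for that reason. The capitals mark the W box (TTGACC or TTGACT, on either strand), the letters that WRKY factors are known to bind.
CYP83B1, chr4:15275405-15275654, minus strand: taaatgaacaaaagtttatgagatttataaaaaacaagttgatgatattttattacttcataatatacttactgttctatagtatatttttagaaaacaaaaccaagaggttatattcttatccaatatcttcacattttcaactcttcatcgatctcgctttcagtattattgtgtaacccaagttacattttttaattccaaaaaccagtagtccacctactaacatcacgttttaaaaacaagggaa
CYP71B6, chr2:10281468-10281717, plus strand: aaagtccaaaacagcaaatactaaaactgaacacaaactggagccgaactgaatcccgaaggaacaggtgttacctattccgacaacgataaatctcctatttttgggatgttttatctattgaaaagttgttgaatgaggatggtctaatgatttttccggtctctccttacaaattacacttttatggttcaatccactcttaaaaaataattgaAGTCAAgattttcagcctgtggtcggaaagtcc
CYP71B6 held 1 match, 33 bases before the start. It was the only one of the 10 genes with a W box in this window, where 28.4% of the 27443 windows have one. For CYP71A12 and CYP71A13 the annotated start is the first coding base, so that their windows may take in transcribed bases. The G box (CACGTG), found in 6.49% of windows, and the GCC box (GCCGCC), found in 1.87%, matched in 0 of the 10. A match is a string of letters and not a site shown to be bound.

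CYP71A12 (chr2:13099486-13101371) and CYP71A13 (chr2:13109909-13111988) lie close together on the minus strand. The first 150 coding bases of each, which are in exon sequence, are shown because reads from such a pair can be hard to assign. The 17 bases that differ are in capitals.
CYP71A12, chr2:13101222-13101371, minus strand: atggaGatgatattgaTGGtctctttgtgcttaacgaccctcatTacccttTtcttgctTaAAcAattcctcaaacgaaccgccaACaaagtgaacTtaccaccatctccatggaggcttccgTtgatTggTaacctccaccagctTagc
CYP71A13, chr2:13111839-13111988, minus strand: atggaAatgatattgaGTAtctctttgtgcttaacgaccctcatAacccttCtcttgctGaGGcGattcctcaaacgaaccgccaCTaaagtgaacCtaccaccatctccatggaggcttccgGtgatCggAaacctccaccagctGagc
Over the 1494 coding bases of each gene the pair was 90.4% identical, and the longest identical run was 59 bases. Of the 1445 windows of 50 bases in CYP71A13, 10 occurred unchanged in CYP71A12 (0.692%). At a length of 50 bases the pair is thus separable over most of its sequence, and the read length was not part of this check. Reads that were not unique form a class of their own in the deposited counts. The sources used here do not say whether any of them were also counted for a gene. CYP79B2 and CYP79B3 were 78.1% identical, with no shared window of 50 bases.

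The libraries held 1575446 to 3302325 counts (median 2122122). Between 37.6% and 65.3% of reads were recorded as not unique. The mock 24 h library stood apart, with the lowest of these shares, so that late results are also given without it. The 2 libraries of each uncut group differed by more than sampling noise and were kept as separate replicates. Levels below are CPM, counts scaled by TMM to library size. A gene was tested with edgeR's quasi-likelihood F test, fitted on all 12 libraries and adjusted by Benjamini-Hochberg over the 16820 genes that passed the filter on low counts. It was called at an adjusted p under 0.05. Of the 10 genes, 8 passed the filter, and CYP71A13 and MYB122 did not. Excision means the average of the 4 stump times minus the uncut tips, with both treatments averaged. Errors after ± are standard errors of the log2 fold change. Folds given with an interval are ratios of summed counts with exact 95% binomial intervals, and these cover counting error only.

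CYP79B2, the main early enzyme here, was highest 30 min after cutting. Its level in uncut tips was 9.04 and 1.70 CPM in mock and 22.9 and 14.1 CPM in CNQX. At 30 min it was 66.1 CPM in mock and 98.0 CPM in CNQX. Both 30 min libraries lay above all 4 uncut libraries, which was so for 18.0% of all genes. The level was 20.04 CPM in mock and 17.3 CPM in CNQX at 4 h, 8.46 CPM and 0 CPM at 14 h, and 3.47 CPM and 6.62 CPM at 24 h. From 4 h on, the stump libraries overlapped the range of the uncut ones. The rise at 30 min was called, at a log2 fold change of 3.03 ± 0.68 (edgeR, adjusted p = 0.0277), and the summed counts differed 7.97-fold (6.38 to 10.04; 366 counts against 101). This call was lost without mock uncut replicate 2 (adjusted p = 0.0538), CNQX uncut replicate 1 (0.0579) or CNQX uncut replicate 2 (0.0663), with log2 fold changes of 2.70 to 3.23. The difference of 4 h from 30 min, at -2.16 ± 0.83, was not called (edgeR, adjusted p = 0.522), although neither 4 h library reached the lower of the 30 min libraries. The latter was so for 20.2% of all genes. Averaged over the 4 times, CYP79B2 differed from uncut tips by 0.40 ± 0.55 (edgeR, adjusted p = 0.635), and without the 30 min libraries this average was -0.50.

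CYP79B3, the second enzyme of the same step, was near the detection limit in most libraries. Its summed counts were 26 in uncut tips and 50 in stumps. It reached 7.05 CPM in CNQX at 30 min and 6.94 CPM in mock at 24 h, while the 4 uncut libraries held 0.851 to 4.70 CPM. The CNQX libraries of 4 h, 14 h and 24 h had no count of it. It was called in no comparison. At 30 min its log2 fold change was 1.37 ± 1.07 (edgeR, adjusted p = 0.503).

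CYP83B1, the entry enzyme of the indole glucosinolate branch, was the most abundant of the 10 genes and rose in the stump at 3 of the 4 times. In uncut tips it stood at 47.8 and 28.9 CPM in mock and at 73.8 and 59.6 CPM in CNQX. It was 155 CPM in mock and 173 CPM in CNQX at 30 min. At 4 h it was 90.4 CPM in mock and 93.4 CPM in CNQX. It was 285 and 181 CPM at 14 h, and 302 and 211 CPM at 24 h, in mock and CNQX. Every stump library lay above every uncut library, which was so for 1 of the 8 tested genes and for 4.89% of all genes in this direction and 10.6% in either. Relative to uncut tips the log2 fold change was 1.71 ± 0.32 at 30 min (edgeR, adjusted p = 0.0116), 2.18 ± 0.32 at 14 h (0.000612) and 2.32 ± 0.32 at 24 h (0.000188). At 4 h it was 0.86 ± 0.33 and was not called (edgeR, adjusted p = 0.179). Averaged over the 4 times it was 1.77 ± 0.26 (edgeR, adjusted p = 0.000943). The calls of excision, 30 min, 14 h and 24 h held under every alternative run.

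**Figure D1:**
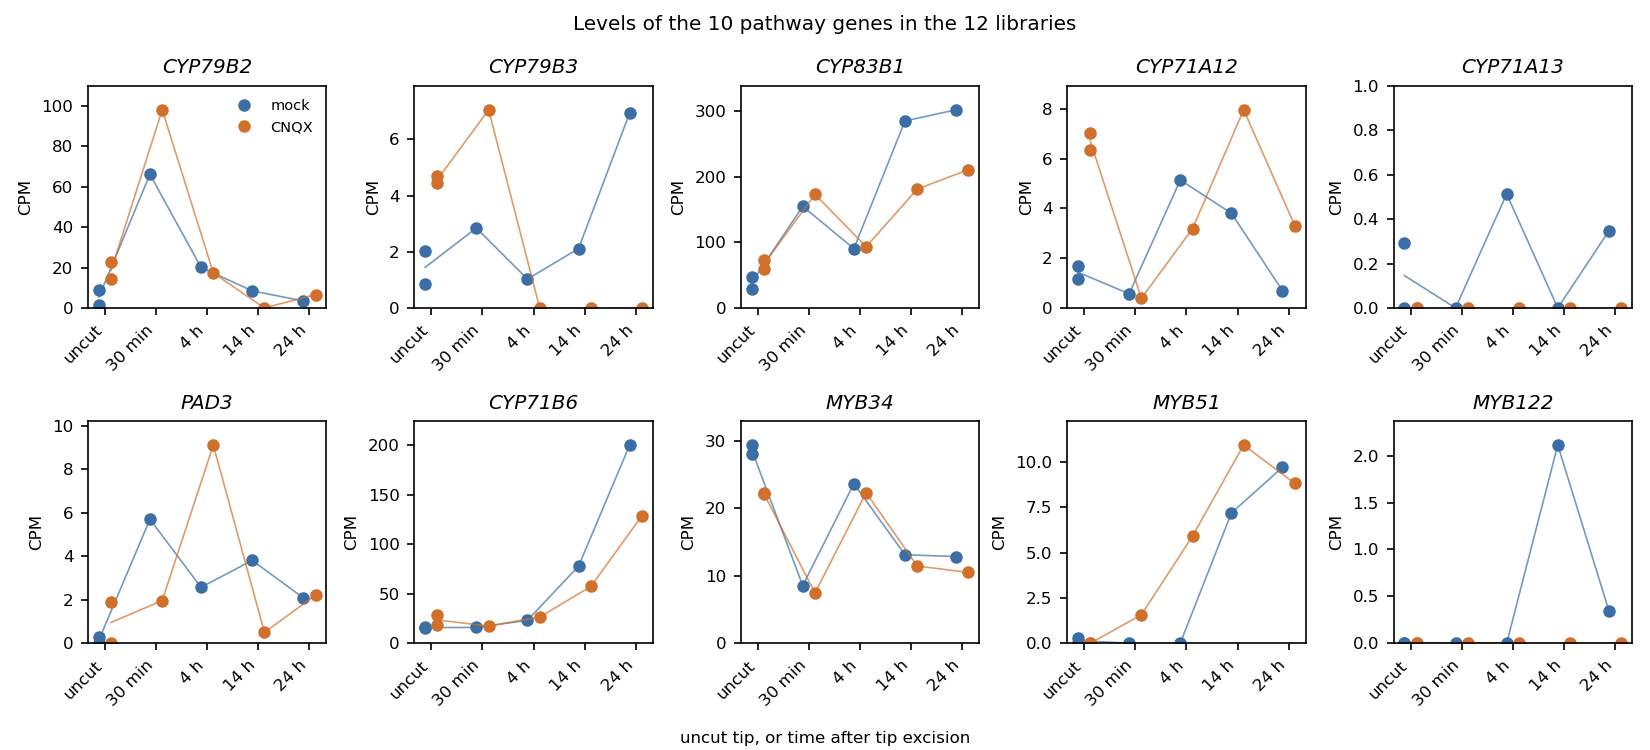
Level of each of the 10 genes in the 12 libraries, in CPM on a linear axis that starts at 0 and differs between panels. Points are single libraries, blue for mock and orange for CNQX, and lines join the mean of the uncut libraries to the 4 times after excision. CYP79B2 peaks at 30 min at 66.1 and 98.0 CPM, while CYP71B6 is highest at 24 h at 200 and 129 CPM.

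CYP71A12, on the camalexin branch, was barely detected at 30 min. It had 1 count in each 30 min library, or 0.569 CPM in mock and 0.392 CPM in CNQX. The uncut libraries held 1.17 and 1.70 CPM in mock and 6.36 and 7.04 CPM in CNQX. Its later levels, 0.694 to 7.96 CPM, overlapped those of uncut tips. The summed counts at 30 min were 7.50-fold lower than in uncut tips (1.92 to 64.5; 2 counts against 33), but the test did not call it, at -2.64 ± 1.08 (edgeR, adjusted p = 0.189). CYP71A13, its close copy, had 3 counts in all 12 libraries together, all in mock, and was not tested.

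PAD3, which completes camalexin, was detected in every stump library and in 2 of the 4 uncut ones. Uncut tips held 0.292 and 0 CPM in mock and 1.91 and 0 CPM in CNQX. Stumps held 5.69 CPM in mock and 1.96 CPM in CNQX at 30 min, 2.57 and 9.11 CPM at 4 h, 3.81 and 0.498 CPM at 14 h, and 2.08 and 2.21 CPM at 24 h. All stump libraries but the CNQX one of 14 h lay above the highest uncut library. The summed counts were 8.12-fold higher in stumps (3.01 to 30.8; 60 counts against 4). The log2 fold change for excision, 2.83 ± 1.01, missed the threshold (edgeR, adjusted p = 0.0548). It passed with DESeq2 (adjusted p = 0.048), with limma-voom (0.0281), with no filter on low counts (0.0198) and without CNQX uncut replicate 1 (4.87, 0.047). Over all alternatives its adjusted p ran from 0.0198 to 0.24.

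CYP71B6, on the side branch from indole-3-acetonitrile, rose late and by more than CYP83B1 at 24 h. Uncut tips held 16.6 and 14.9 CPM in mock and 28.6 and 18.3 CPM in CNQX. The 30 min libraries, at 15.9 and 17.2 CPM, and those of 4 h, at 23.1 and 26.4 CPM, were within the uncut range. At 14 h the level was 77.8 CPM in mock and 57.2 CPM in CNQX, and at 24 h it was 200 CPM in mock and 129 CPM in CNQX. All 4 late libraries lay above every uncut library. At 14 h this was so for 24.7% of all genes, and at 24 h for 27.7%. The log2 fold change was 1.80 ± 0.33 at 14 h (edgeR, adjusted p = 0.00254) and 3.08 ± 0.32 at 24 h (3.33e-05). Under the alternatives, 1 of which left out the mock 24 h library, the 24 h value ran from 2.77 to 3.24. At 30 min it was -0.20 ± 0.36 (edgeR, adjusted p = 0.807). The average over the 4 times, 1.26 ± 0.26 (edgeR, adjusted p = 0.00516), rested on the latest libraries, for without both 24 h libraries it was 0.66 (adjusted p = 0.0996).

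The regulators differed among themselves. MYB34 was the only MYB gene of the list with a steady level in uncut tips, at 28.0 and 29.4 CPM in mock and 22.3 and 22.1 CPM in CNQX. It was 8.54 CPM in mock and 7.45 CPM in CNQX at 30 min. At 4 h it was 23.6 and 22.3 CPM, inside the uncut range. It was 13.1 and 11.4 CPM at 14 h and 12.8 and 10.5 CPM at 24 h. The libraries of 30 min, 14 h and 24 h lay below all uncut libraries. That was so for 17.3%, 18.3% and 21.3% of all genes at these times. MYB34 was lower at 30 min by a log2 fold change of -1.65 ± 0.40 (edgeR, adjusted p = 0.0368) and at 24 h by -1.11 ± 0.38 (0.0396). At 14 h the value of -1.04 ± 0.38 was not called (edgeR, adjusted p = 0.084). The average over the 4 times was -0.98 ± 0.25 (edgeR, adjusted p = 0.0144), and -0.76 without the 30 min libraries (adjusted p = 0.0697). MYB34 at 30 min was not called without any 1 of the 4 uncut libraries, with adjusted p of 0.0553 and 0.0651 without mock replicates 1 and 2 and 0.0748 and 0.0611 without CNQX replicates 1 and 2, nor without the 14 h libraries (0.0647), while its log2 fold change stayed between -1.69 and -1.63. MYB34 at 24 h was not called without mock uncut replicate 2 (adjusted p = 0.061), CNQX uncut replicate 1 (0.0655), the mock 24 h library (0.215), the 30 min libraries (0.0596) or the 14 h libraries (0.0519), nor with DESeq2 (0.0783) or with no filter on low counts (0.0788).

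MYB51 was absent or nearly so in uncut tips and present in late stumps. The 4 uncut libraries together held 1 count, in mock. Mock stumps held 0 CPM at 30 min and 4 h, 7.19 CPM at 14 h and 9.72 CPM at 24 h. CNQX stumps held 1.57 CPM at 30 min, 5.92 CPM at 4 h, 10.9 CPM at 14 h and 8.83 CPM at 24 h. Every library of 14 h and 24 h lay above every uncut library, as for 24.7% of all genes at 14 h and 27.7% at 24 h. The summed counts were 84.5-fold higher at 14 h (14.3 to 3423; 39 counts against 1) and 88.9-fold higher at 24 h (15.1 to 3589; 44 counts against 1). MYB51 rose at both times (edgeR, adjusted p = 0.00729 at 14 h and 0.00338 at 24 h) and over the average of the 4 times (0.0161). The average was not called without the 14 h libraries (adjusted p = 0.0605), and the 24 h rise was not called without the mock 24 h library (0.0711). MYB122, the third regulator, had 5 counts in mock at 14 h and 1 in mock at 24 h, and none in the other 10 libraries.

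**Figure D2:**
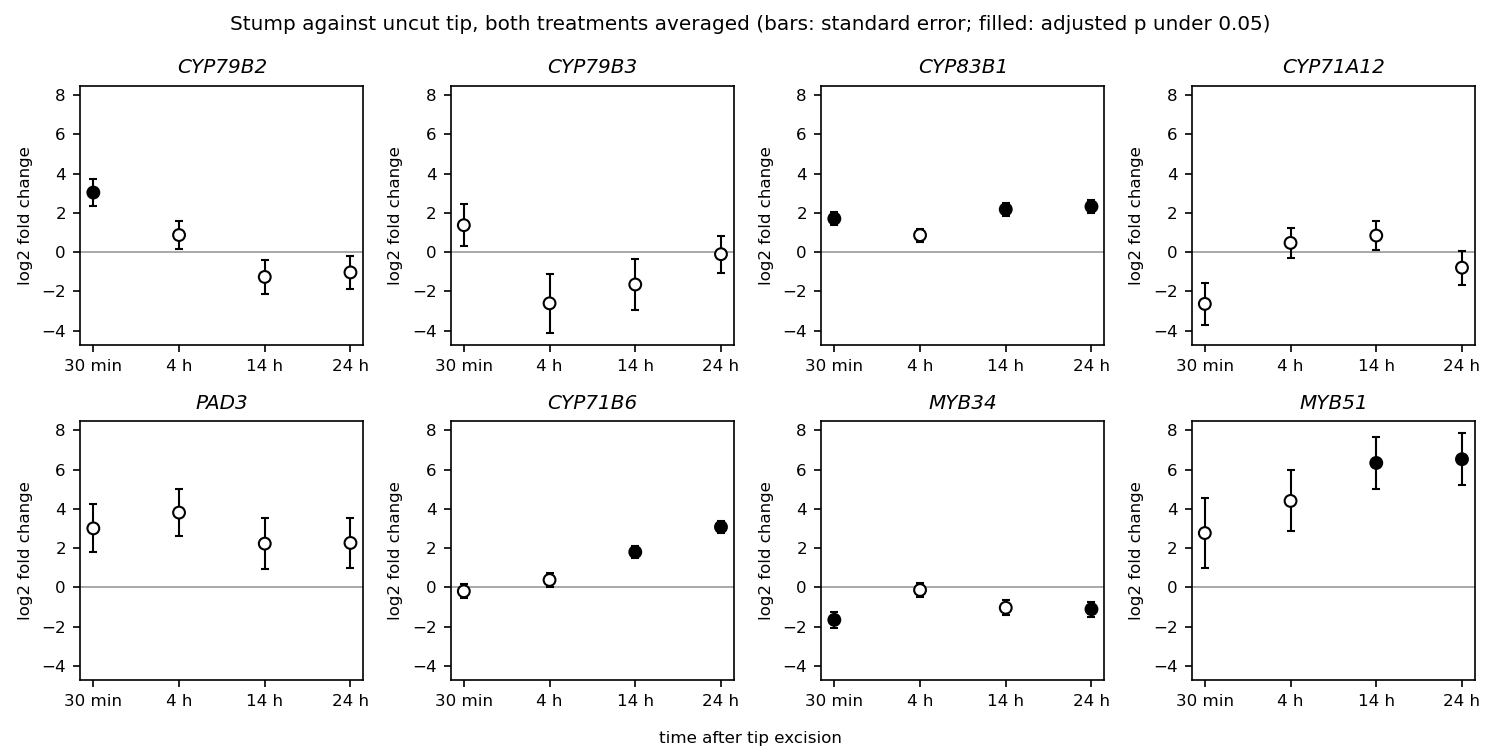
Log2 fold change of the 8 tested genes at each time after excision against the 4 uncut libraries, with both treatments averaged. Points are fitted values, bars are standard errors, and filled points have an adjusted p under 0.05. CYP83B1 is filled at 30 min, 14 h and 24 h, CYP79B2 at 30 min only, and CYP71B6 and MYB51 at 14 h and 24 h.

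Read as a set, the members were called at rates that differed between times. At 30 min 2 of the 8 tested genes were higher and 1 was lower, against 4.43% of all genes called (3.23% higher, 1.2% lower). At 4 h none was called by edgeR, against 2.97% of all genes, with 3 of the 8 at an unadjusted p under 0.05 and 0 called by DESeq2 or limma-voom. At 14 h 3 were higher, where 15.7% of all genes were called (13.2% higher). At 24 h 3 were higher and 1 lower, where 33.4% of all genes were called (21.3% higher, 12.1% lower). For the average over the times 3 were higher and 1 lower, against 25.5% (13.6% higher, 11.9% lower). The count at 30 min fell to 1 without mock uncut replicate 2, CNQX uncut replicate 1 or CNQX uncut replicate 2, and the count at 24 h fell to 2 without the mock 24 h library, where the share of all genes called was 9.76%. The median log2 fold change of the 8 genes was 1.54 at 30 min, 0.67 at 4 h, 1.32 at 14 h and 1.08 at 24 h, while the median of all tested genes was 0.0032, -0.0012, 0.0047 and -0.0031. These medians mix genes that moved in opposite directions. Between neighbouring times no member was called by edgeR. The share of all genes called was 0.428% for 4 h against 30 min, 0.957% for 14 h against 4 h and 0.0238% for 24 h against 14 h. At an unadjusted p under 0.05 there were 5, 3 and 1 of the 8, and DESeq2 called 0 in each.

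Per kilobase of exon, a rough scale for comparing different genes, CYP83B1 was first with a mean of 74.6 CPM per kb over the 12 libraries. The RNA was amplified, and whether counts scale with exon length was not checked. For CYP71A12 and CYP71A13 the annotated exons hold 1494 bases, the length of the coding sequence alone. CYP71B6 followed at 28.5, then CYP79B2 at 10.4 and MYB34 at 9.92 CPM per kb. CYP71A12 (2.31), MYB51 (2.08), PAD3 (1.41) and CYP79B3 (1.19) formed a low group, and MYB122 (0.131) and CYP71A13 (0.0643) came last. The order differed between stages. In uncut tips MYB34 (14.3 CPM per kb) stood above CYP71B6 (10.7), and at 30 min CYP79B2 (38.4) stood above CYP71B6 (9.07), which reached 36.9 at 14 h and 89.8 at 24 h. The neighbours CYP79B2 and MYB34 in the order of means are not apart, since CYP79B2 ranged from 0 to 98.0 CPM between libraries. The order within the low group likewise lies inside the ranges of its members. The distance between the early enzyme and the branch enzyme differed with time. At 30 min CYP79B2 stood at 30.9 and CYP83B1 at 81.5 CPM per kb in mock, and at 45.9 and 91.2 in CNQX. At 14 h the same pair stood at 3.96 and 150 CPM per kb in mock and at 0 and 95.3 in CNQX.

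Over the 12 libraries the log2 levels of the genes paired up unevenly. These correlations are descriptions over libraries that share treatment and time, and carry no test. CYP71B6 ran with MYB51 (Pearson r = 0.825, n = 12) and with CYP83B1 (r = 0.748), and CYP83B1 with MYB51 (r = 0.743). CYP83B1 and MYB34 ran in opposite directions (r = -0.818). CYP79B2 had r = 0.03 with CYP83B1, and r = 0.486 with CYP79B3 and with PAD3. Among the 15105 genes with a mean of at least 4 CPM, those most like CYP79B2 were the defensin-like gene AT4G22214 (r = 0.9), AT3G53400 (0.896), AT1G67180 (0.894), NF-YB13 (0.891) and FRS2 (0.885). Those most like CYP83B1 were AT3G23200 (r = 0.963), AT3G28450 (0.961), GSTF10 (0.959), TRX5 (0.955) and MAPKKK14 (0.955). Those most like PAD3 were CBL6 (r = 0.9), PUB45 (0.868), YKT61 (0.866), BES1 (0.865) and RRA3 (0.845), but PAD3 held 64 counts in all, so that its likeness is coarse.

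The other genes of the pathway were described by 7 lists with 57 genes, of which 44 were tested. For the average over the times 13 were higher and 4 lower, against 25.5% of all genes called. At 30 min 7 were higher and none lower by edgeR, against 4.43% called, with 16 of the 44 at an unadjusted p under 0.05 and DESeq2 also calling none lower. At 24 h 16 were higher and 3 lower, against 33.4% of all genes called. Without the mock 24 h library 6 of 47 were higher and 2 lower, against 9.76% of all genes. At 4 h 1 was higher, against 2.97% of all genes called. At 14 h 8 were higher and 2 lower, against 15.7% called.

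The 6 genes of the indole glucosinolate core, which act after CYP83B1, were the list most often called at 30 min. There 4 were higher, against 3.23% of all genes. GGP1, which cleaves the glutathione conjugate, was 22.8 and 15.8 CPM in mock and 35.0 and 22.5 CPM in CNQX uncut tips. It was 218 CPM in mock and 247 CPM in CNQX at 30 min. By 4 h it was 33.9 and 50.6 CPM, and from 30 min to 4 h it fell by a log2 fold change of 2.46 ± 0.40 (edgeR, adjusted p = 0.0163). Like CYP79B2, GGP1 had its highest level in both 30 min libraries. SOT16, a desulfoglucosinolate sulfotransferase, rose by 2.38 ± 0.39 at 30 min (edgeR, adjusted p = 0.00503) and UGT74B1, the S-glucosyltransferase, by 2.14 ± 0.46 (0.0233). The glutathione transferase GSTF10 rose by 1.53 ± 0.30 at 30 min (edgeR, adjusted p = 0.0157), 1.54 ± 0.30 at 14 h (0.00392) and 1.80 ± 0.30 at 24 h (0.000793). The UGT74B1 call at 30 min was lost without CNQX uncut replicate 2 (adjusted p = 0.0611) and the 14 h libraries (0.0521), and that of GSTF10 without mock uncut replicate 2 (0.0538). Over the average of the times, for which 25.5% of all genes were called, GSTF10, GGP1, UGT74B1 and SOT16 were called. There GGP1 (0.56, adjusted p = 0.183) and SOT16 (0.80, 0.1) were not called without the 30 min libraries, nor SOT16 without CNQX uncut replicate 2 (0.92, 0.0614).

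Tryptophan synthesis, which feeds the pathway, had 2 genes higher and 2 lower of 10 for the average over the times. The shares of all genes were 13.6% higher and 11.9% lower. PAT1 (TRP1 in the annotation) rose by 0.81 ± 0.22 (edgeR, adjusted p = 0.0201) and TSA1 by 0.75 ± 0.23 (0.0331). PAI1 was lower, at -1.75 ± 0.38 (edgeR, adjusted p = 0.00688), and so was ASA2, at -0.87 ± 0.25 (0.0258). PAI1 has a near-identical copy, PAI2, and its value is uncertain. Without mock uncut replicate 1 the calls of PAT1, TSA1 and ASA2 were lost, with adjusted p of 0.0863, 0.0598 and 0.0579. PAT1 was also not called without CNQX uncut replicate 1 (0.0768), TSA1 without mock uncut replicate 2 (0.119), and ASA2 and TSA1 without CNQX uncut replicate 2 (0.103 and 0.16). Of 5 tested genes that modify the indole ring, CYP81F4 rose, by 0.87 ± 0.24 (edgeR, adjusted p = 0.0214). It was 785 CPM in mock and 388 CPM in CNQX at 24 h and between 54.3 and 94.5 CPM in the other 10 libraries. Without both 24 h libraries its average was 0.18 (adjusted p = 0.617), and its call was also lost without mock uncut replicate 1 (0.114) or CNQX uncut replicate 2 (0.0809).

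Of 11 genes of glucosinolate breakdown and transport, 5 were higher and 2 lower for the average over the times. Among all genes 13.6% were called higher and 11.9% lower. The nitrilase NIT1, which can act on indole-3-acetonitrile, rose by 2.32 ± 0.30 (edgeR, adjusted p = 0.000548). It went from 66.2 to 115 CPM in uncut tips to 2560 CPM in mock and 1642 CPM in CNQX at 24 h. The beta-glucosidase PYK10 rose by 1.94 ± 0.33 (edgeR, adjusted p = 0.00196) and the glucosinolate transporter GTR1 by 1.95 ± 0.32 (0.00178). The root myrosinase gene TGG5 was lower, at -2.86 ± 0.45 (edgeR, adjusted p = 0.00148), and went from 54.1 to 296 CPM in uncut tips to 0 CPM in mock and 0.552 CPM in CNQX at 24 h. Reads that match both TGG5 and its close copy TGG4 may have been lost or mixed. Without both 24 h libraries TGG5 was -0.94 and was not called (adjusted p = 0.108). The 24 h calls of PEN2, GTR1, PEN3 and NIT3, of the same list, were lost without the mock 24 h library. Their log2 fold changes at 24 h went from 1.87 to 1.08 for PEN2 and from 2.22 to 1.22 for PEN3. For GTR1 the change was from 1.63 to 1.58, and for NIT3 from 1.53 to 1.28. Among 5 tested genes of the camalexin and cyanogenic branch the glutathione transferase GSTF6 rose, by 1.17 ± 0.34 (edgeR, adjusted p = 0.024). WRKY33, which activates PAD3 in infected leaves, was at 0.79 (edgeR, adjusted p = 0.0769). GSTF6 was not called without mock uncut replicate 1 (adjusted p = 0.0988), CNQX uncut replicate 1 (0.0935), the 4 h libraries (0.0523) or the 24 h libraries (0.342). At 24 h 3 of the 5 tested genes of this branch were called higher, where 21.3% of all genes were. WRKY33 was among them, at 1.59, a call lost without the mock 24 h library, where it was 0.75. Of the MYC factors that bind these MYB proteins, 0 of 3 were called by edgeR for the average over the times, and 0 of 3 had an unadjusted p under 0.05 there. MYC4 rose at 24 h, by 1.31 ± 0.41 (edgeR, adjusted p = 0.0279), but not without mock uncut replicate 2 (0.0618), CNQX uncut replicate 2 (0.0948), the mock 24 h library (0.506) or the 14 h libraries (0.0588). MYC2 was lower at 4 h than at 30 min, at -2.18 ± 0.41 (edgeR, adjusted p = 0.0429), a call lost without the 14 h libraries (0.0982). The 12 aliphatic glucosinolate genes had 0 to 132 counts each over all libraries, and 4 passed the filter. Of these 4, 0 were called by edgeR for the average over the times and 0 had an unadjusted p under 0.05 there. At 14 h 1 of them was higher, where 15.7% of all genes were called.

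**Figure D3:**
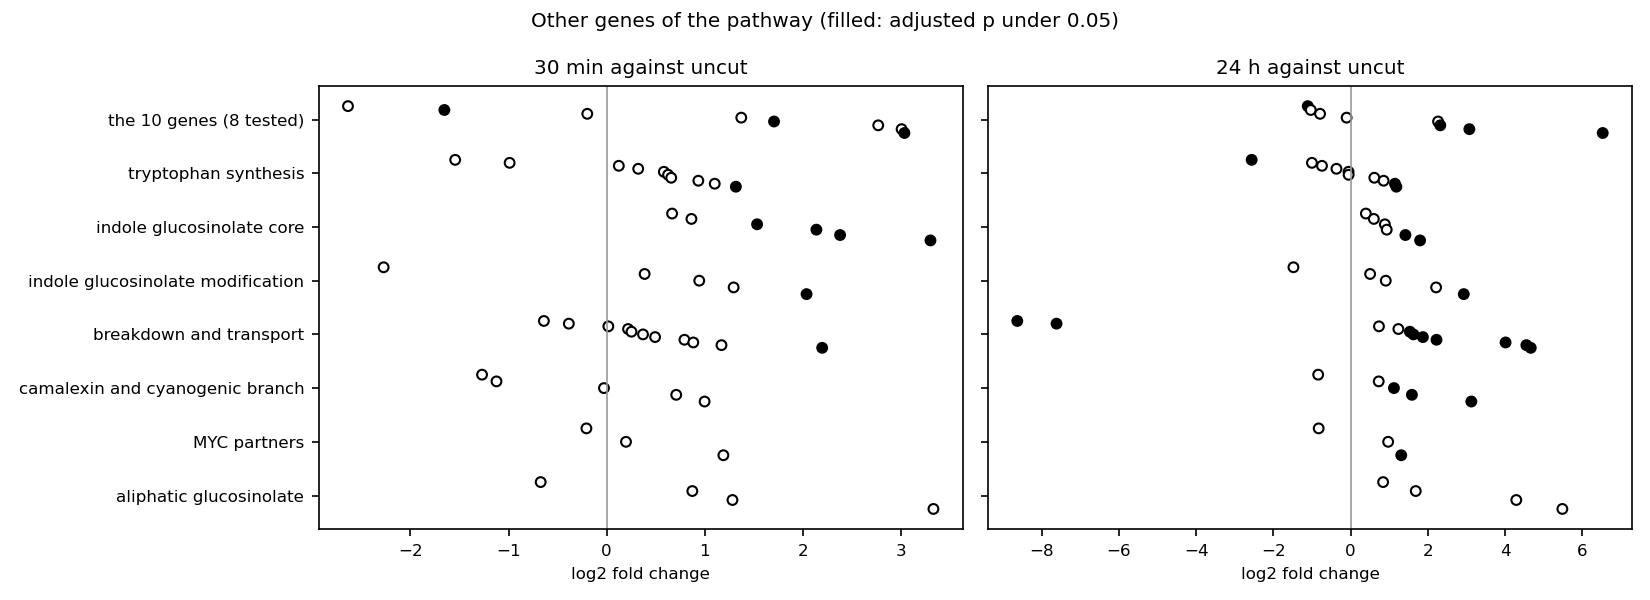
Log2 fold change of each tested gene of the 10 and of the 7 other lists, at 30 min (left) and 24 h (right) against uncut tips, with both treatments averaged. Each point is a gene, and filled points have an adjusted p under 0.05. At 30 min 4 of 6 core genes are filled, where 4.43% of all genes were called. At 24 h the breakdown and transport list has 7 filled points above 0 and 2 below, where 33.4% of all genes were called. Of these, PEN2, GTR1, PEN3 and NIT3 were not called without the mock 24 h library.

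Markers of cell types moved with the stages as well. The summed level of 6 root cap genes was 55.1 to 183 CPM in uncut tips and 7.47 to 28.8 CPM in stumps, with SMB and FEZ at 0 at 30 min and 4 h. All 4 tested root cap genes were lower over the average of the times, for which 11.9% of all genes were called lower. Summed over 9 endodermis genes the level was 10.2 to 17.0 CPM in uncut tips, 17.6 to 18.2 CPM at 30 min, 301 to 609 CPM at 14 h and 119 to 230 CPM at 24 h. CASP2 and CASP5 were at 0 in uncut tips. The 4 stem cell niche genes summed to 84.6 to 130 CPM in uncut tips and 42.3 to 91.1 CPM in stumps, and 2 of the 3 tested were lower over the average of the times. SCR made up most of these sums, at 52.8 to 99.1 CPM in uncut tips and 41.5 to 88.8 CPM in stumps. WOX5 went the other way, with 0 to 1.27 CPM in uncut tips. It held 2.96 CPM in mock and 4.48 CPM in CNQX at 14 h, and 5.56 and 4.41 CPM at 24 h. The sum of 6 root hair genes was 17.8 to 26.0 CPM in uncut tips, 219 to 334 CPM at 14 h and 99.7 to 189 CPM at 24 h. For 3 photosynthetic genes it was 3.76 to 7.00 CPM in uncut tips and 129 to 384 CPM at 24 h. CYP83B1, CYP71B6 and MYB51 were likewise higher at 14 h and 24 h than in uncut tips. From 14 h to 24 h the endodermis and root hair sums fell and the photosynthetic sum rose. CYP71B6 was at 77.8 CPM in mock and 57.2 CPM in CNQX at 14 h, and at 200 and 129 CPM at 24 h. Its difference between these times was not called (edgeR, adjusted p = 0.294). The part of these cell types in the result was not tested. At 30 min, when CYP79B2, CYP83B1 and GGP1 were higher, the endodermis list had 0 of 8 and the root hair list 0 of 6 genes called by edgeR (unadjusted p under 0.05: 0 and 1), against 4.43% of all genes. Root cap markers were already low then, and the part of this loss in the lower MYB34 level was not tested.

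No member was called for CNQX against mock, in uncut tips, in stumps or in the difference between them. Of all 16820 genes 0% were called by edgeR in each of these comparisons, with 629, 327 and 390 at an unadjusted p under 0.05. DESeq2 and limma-voom also called 0 genes, and edgeR with no filter on low counts called 10, 10 and 2, none of them a member. In uncut tips the CNQX libraries lay apart from the mock libraries for 6 of the 8 genes, with 5 higher and MYB34 lower, while 29.7% of all genes had 2 and 2 libraries that do not overlap (14.2% higher, 15.5% lower). CYP71A12 had the highest log2 fold change of them, 2.21 ± 0.92 (edgeR, adjusted p = 0.978). Its 25 counts in CNQX against 8 in mock were a 4.88-fold ratio (2.13 to 12.5). CYP79B2 differed by 1.70 ± 0.89 and CYP83B1 by 0.79 ± 0.39, both with an adjusted p of 0.978. Among the other genes of the pathway WRKY33 was at 1.52 ± 0.50 (edgeR, adjusted p = 0.978).

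In stumps, where each time had 1 library per treatment, none of the 8 genes had CNQX libraries that all lay above or all below the mock ones with the times pooled, and 0.785% of all genes did. The averages over the 4 times were -0.24 ± 0.27 for CYP83B1, -0.22 ± 0.28 for CYP71B6, -1.82 ± 1.17 for CYP79B3 and 1.28 ± 0.86 for MYB51 (edgeR, adjusted p = 1 for each). Single times have no replicate and are given as ratios of 2 libraries. CYP83B1 was 1.57-fold lower in CNQX at 14 h (1.38 to 1.79) and 1.43-fold lower at 24 h (1.27 to 1.62), after ratios of 1.118 and 1.032 in the other direction at 30 min and 4 h, whose intervals include no difference. CYP71B6 was 1.36-fold lower at 14 h (1.07 to 1.73) and 1.56-fold lower at 24 h (1.33 to 1.82), after ratios of 1.08 and 1.14 in the other direction at 30 min and 4 h, with intervals that include no difference. CYP79B2 was 1.48-fold higher in CNQX at 30 min (1.19 to 1.87) and, with 0 counts against 20, at least 5.67-fold lower at 14 h. CYP79B3 had 0 counts in CNQX against 20 in mock at 24 h, at least 4.19-fold lower. MYB51 had 13 counts in CNQX against 0 in mock at 4 h, at least 3.84-fold higher, where 3 counts were taken as the floor for a library without any. PAD3 was 3.55-fold higher at 4 h (1.29 to 12.1) and 7.65-fold lower at 14 h (1.06 to 335). Of the 8 genes, 7 differed in sign from time to time. MYB34 was lower in CNQX than in mock at all 4 times, which was so for 4.83% of all genes, and its average over the times was -0.19 ± 0.31 (edgeR, adjusted p = 1). At 24 h the mock member of each ratio is the library that stood apart.

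**Figure D4:**
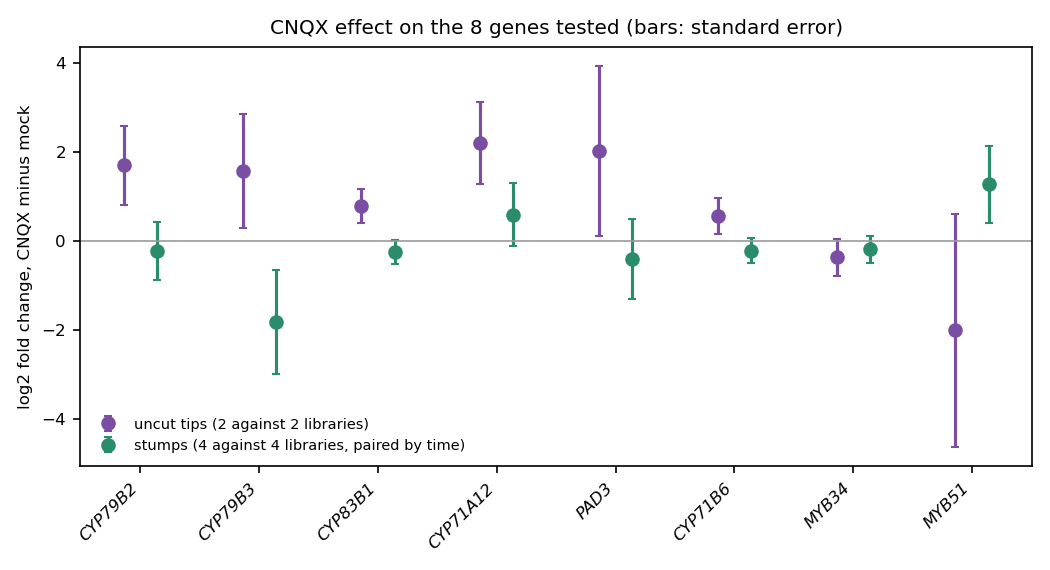
Log2 fold change, CNQX minus mock, of the 8 tested genes in uncut tips (purple, 2 against 2 libraries) and in stumps (green, averaged over the 4 times). Points are fitted values and bars are standard errors. None has an adjusted p under 0.05, and the largest value in uncut tips is that of CYP71A12, at 2.21.

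The CNQX effect in stumps minus that in uncut tips was -1.03 ± 0.47 for CYP83B1 (edgeR, adjusted p = 1). It was -1.93 ± 1.10 for CYP79B2, -3.40 ± 1.74 for CYP79B3, -1.61 ± 1.17 for CYP71A12 and -2.43 ± 2.12 for PAD3. CYP71B6 was at -0.78 ± 0.49, MYB34 at 0.18 ± 0.51 and MYB51 at 3.29 ± 3.17, and none was called. For CYP83B1 CNQX was above mock in the uncut tips, within counting error of it at 30 min and 4 h, and below it at 14 h and 24 h. Each of these times has 1 library per treatment, and the 2 mock uncut libraries of this gene alone were at 47.8 and 28.9 CPM. With 5 residual degrees of freedom the intervals are wide, and a missed threshold does not show that CNQX and mock roots had the same levels.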

How the data were processed

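The authors deposited raw counts, not normalized, for 32833 loci in each of 12 libraries; the joint table of counts differed from the single library files at 0 values. HISAT2, DESeq2 and the TAIR10 build are named in the submitters' processing notes; the sources used here do not give versions, the counting tool or its strand setting. Per the labels' protocols, RNA was amplified before library construction. Reads without a feature (18.4% to 29.4%) and not unique (37.6% to 65.3%) were left out of library sizes.

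Tests used edgeR 4.0.16 in R 4.3.3 (TMM, filterByExpr with a minimum count of 10, quasi-likelihood F test with 7 coefficients and 5 residual degrees of freedom: stage, CNQX effect in uncut tips, CNQX effect in stumps). Standard errors are the absolute log2 fold change divided by the root of F. The scripts were tested on simulated data. DESeq2 1.42.0, limma 3.58.1 (voom), RLE size factors, no filter, a minimum count of 30, left-out libraries and a replicate block were alternatives. Likeness is Pearson r of log2(CPM + 1). Members, lists and alternatives were chosen with earlier results of these data known. The text names all 10 members and, of the 7 pathway lists (57 genes), up to 4 genes with the lowest p for excision and 2 for each CNQX comparison; those named for single times, and the CYP79B promoter comparison, were chosen after their values were seen. The 5 marker lists cover root cap, stem cell niche, endodermis, root hair and photosynthetic tissue. The annotation matched 32548 loci. Depth limits low genes: 3 counts, the floor used for a group or library without any, cannot be told from 0 with confidence, and intervals cover counting error only.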

Additional observations from a re-analysis of the deposited data

How the results depend on the processing

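The number of members called for excision was 3 to 5 under the alternatives against 4 as reported, and that at 14 h was 2 to 3 against 3. At 30 min it was 3, with 1 to 3 when single libraries were left out. At 24 h it was 4, with 2 to 4 when single libraries were left out, the 2 being without the mock 24 h library. With no low count filter, 2 members were called at 4 h (PAD3 and MYB51, adjusted p = 0.0182 and 0.0297) and 1 each for 4 h against 30 min and for 14 h against 4 h (CYP79B2, adjusted p = 0.00478 and 0.0186), where 0 were called with it. CNQX called 0 members in every alternative. The replicate numbers of the uncut libraries give only 2 pairs, too few to show a pairing, whose differences had a correlation of 0.36 across 16820 genes; the labels do not say what a shared number means. With the number as a replicate block the count at 30 min was 1 and CYP79B2 excision was -0.11. The block also ended the calls of MYB51 excision (4.35, adjusted p = 0.0714), CYP79B2 at 30 min (2.52, 0.0777) and MYB34 at 30 min (-1.64, 0.0549) and 24 h (-1.10, 0.061). Among the pathway genes it ended those of ASA2, TSA1, UGT74B1 and SOT16 for excision (0.11, 0.189, 0.0696 and 0.0703), UGT74B1 at 30 min (0.0596), 14 h (0.0885) and 24 h (0.128), GSTF10 at 30 min (0.05), MYC4 at 24 h (0.0992) and CYP79F2 at 14 h (0.112).

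Of the single gene results under alternatives, 1126 kept direction and side of the threshold, 23 lost a call, 8 gained one and 14 changed sign; none of the 14 was called as reported. Without the 30 min libraries the excision value was -0.50 for CYP79B2 and 0.17 for CYP71A12. When single libraries were left out, CYP79B3 at 24 h ran from -5.19 (without the mock 24 h library) to 0.19 (without mock uncut replicate 1) and CYP71A12 at 24 h from -1.01 to 0.027 (without the mock 24 h library). For 24 h against 14 h CYP79B3 then ran from -3.82 to 1.54, CYP83B1 from -0.059 to 0.13 and MYB51 from -1.18 to 0.18, each lowest without the mock 24 h library. With limma-voom, MYB51 for 24 h against 14 h was -0.024 and CYP79B2 for CNQX in stumps was 0.0044. Without the 14 h libraries, CNQX in stumps was 0.37 for CYP79B2 and 0.14 for PAD3. PAD3 ran from -2.05 (without CNQX uncut replicate 1) to 4.00 for CNQX in uncut tips, and from -4.43 to 1.64 (without CNQX uncut replicate 1) for stumps minus uncut tips. The cause of these shifts was not tested. The median of all genes shifted by over 0.1 for 24 h without the 14 h libraries (by -0.107) and for CNQX in stumps minus uncut tips without CNQX uncut replicate 2 (by 0.11). Depth limits CYP79B3, CYP71A12, PAD3 and MYB51.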

Other observations

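Of the aliphatic glucosinolate genes, which start from methionine in place of tryptophan, CYP79F2 and MAM3 had counts mainly in the late mock stumps. CYP79F2, a methionine-side counterpart of CYP79B2, was 16.9 CPM at 14 h and 8.33 CPM at 24 h in mock, 0.995 and 0 CPM in CNQX at the same times, and 0 to 0.911 CPM in the other 8 libraries. It was called at 14 h against uncut tips (edgeR, adjusted p = 0.0424), but not without any 1 of the 4 uncut libraries (adjusted p = 0.0677 to 0.0869) or the 30 min libraries (0.0569). MAM3, of methionine chain elongation, was 7.19 and 11.8 CPM in mock at 14 h and 24 h, against 0 and 0.552 CPM in CNQX. Neither was called for CNQX in stumps (edgeR, adjusted p = 1 for both), and each time has 1 library per treatment.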
